A study of Mus musculus with 3 samples.

Results

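The cytosolic ribosome is built from ribosomal RNA and a set of ribosomal proteins, each encoded by its own gene, and the genes of the small subunit (Rps) and of the large subunit (Rpl) are described here in blood cells of mice. They were all gene symbols starting with Rps or Rpl and a digit, together with Rpsa and the stalk proteins Rplp0, Rplp1 and Rplp2. Symbols of the S6 kinases, which start with Rps6k, and pseudogenes with -ps in their symbol were left out, 10 and 5 symbols. This gave 86 of the 32285 genes in the count tables. Of these, 77 were core members, with 31 of the small and 46 of the large subunit, and 9 were paralogs or other genes under such a symbol (Rpl22l1, Rps27l, Rps27rt, Rpl10l, Rpl36al, Rps19bp1, Rpl39l, Rpl3l and Rpl7l1). They lay on 19 chromosomes, with 4 of them on the X chromosome, and every core member had at least 93123 UMIs (unique molecular identifiers, each standing for 1 captured transcript) over the kept cells. All 86 had at least 1 UMI.

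The cells were peripheral blood mononuclear cells (PBMCs) from female C57BL/6 mice in 3 droplet-based libraries that read the 3' ends of transcripts. The young mice were 8 weeks old and the aged mice 16 months old, and their labels named no treatment. The aged-GA mice were 16 months old and had received glycyrrhizic acid (GA), a saponin of licorice root, for 1 month by injection into the tail vein. The methods of the study state that control mice received PBS. Each group was 1 library of blood from several mice whose pooling is not stated, so age or GA cannot be told apart from the library, no test was run, and all 95% intervals below cover counting error only.

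Ribosomal protein genes are transcribed in all nucleated cells, and their mRNAs are a large part of the mRNA of small resting lymphocytes. Most of these mRNAs begin with a cytosine in a run of pyrimidines, the 5' terminal oligopyrimidine (TOP) tract, through which mTORC1 and the RNA-binding protein LARP1 set their translation and storage. Several ribosomal proteins also have functions of their own outside the ribosome, and their genes have many processed copies in the genome, because their mRNAs were often copied back into DNA.

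The start sites of some of the members on which the results turn are shown to let the pyrimidine runs be seen. The windows run from 10 bases before to 20 bases after the RefSeq start site (GRCm38.p6), 5' to 3' on the strand of the gene, and cover the end of the promoter and the start of exon 1. Capitals mark the longest run of C and T where it had 6 or more bases. Rps24 was the most abundant member; Rpl12, Rps6, Rpl13a, Rps12 and Rps25 had a lower share and Rpl41, Rps28 and Rpl38 a higher share of the member UMIs in aged than in young cells; Rpl35 was lower in the aged-GA library, and Rps9 was high in neutrophil-like cells.
Rps24 (chr14:24490668-24490697, + strand): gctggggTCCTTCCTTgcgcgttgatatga
Rpl12 (chr2:32961702-32961731, + strand): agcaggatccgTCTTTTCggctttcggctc
Rps6 (chr4:86857348-86857377, - strand): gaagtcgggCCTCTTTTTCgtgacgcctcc
Rpl13a (chr7:45128726-45128755, - strand): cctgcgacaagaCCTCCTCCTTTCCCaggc
Rps12 (chr10:23787190-23787219, - strand): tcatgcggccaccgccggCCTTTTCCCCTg
Rpl35 (chr2:39005112-39005141, - strand): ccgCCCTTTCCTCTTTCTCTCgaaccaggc
Rps9 (chr7:3704031-3704060, + strand): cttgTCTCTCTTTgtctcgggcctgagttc
Rpl41 (chr10:128549149-128549178, - strand): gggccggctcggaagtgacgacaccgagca
Rps28 (chr17:33824543-33824572, - strand): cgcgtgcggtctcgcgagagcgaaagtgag
Rps25 (chr9:44407704-44407733, + strand): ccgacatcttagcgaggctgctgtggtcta
Rpl38 (chr11:114668570-114668599, + strand): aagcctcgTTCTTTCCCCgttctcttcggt
Such a run, read on the strand of the gene only, was in 39 of the 66 members with a RefSeq window (59.1%) and in 8678 of all 27025 genes with one (32.1%), counting a gene once over its windows, and 20 members had no window. In Rpl41, Rps28 and Rps25 these letters held no run of that length, so members with and without a run were among both the lower and the higher ones. A run is a match of letters and not a mapped TOP tract, since start sites in the annotation can be off by some bases.

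Of 10842 young, 16038 aged and 17332 aged-GA barcodes, 8851, 10238 and 12648 were kept by limits taken from the methods of the study but set here within each library. These cell numbers are not those of the study, being higher for young and aged-GA and lower for aged cells. The kept cells had 48249945, 53770440 and 75832322 UMIs and medians of 4671, 3810 and 4752 UMIs per cell. Cells were sorted into classes by their own marker genes, with at least 3 markers of a class detected and at least 2 more than of any other class, and a class is called "-like" for that reason. Plasma cells and B cells were the exception. Plasma cells were taken first and B cell markers were not set against theirs, and B-like cells could have up to 2 plasma cell markers. The gate took 96.1%, 93.3% and 93.9% of the kept cells, and a class is described in a library where it held at least 20 cells. In B-, T-, NK-, monocyte- and neutrophil-like cells the median cell had 6 to 9 of its own markers and 1 or 2 of the best other class, whereas plasma cell-like cells of the aged and aged-GA libraries had 4 to 6 of their own and 6 to 8 of the best other class. Megakaryocyte-like cells had 8 of their own markers in both of these libraries, and 5 of the best other class in the aged and 2 in the aged-GA library. Pairs of libraries shared 50 to 62 cell barcodes. The libraries stood apart in RNA of red cells. In B-like cells haemoglobin genes held 3%, 10.5% and 7.18% of the UMIs in young, aged and aged-GA mice, and in T-like cells 0.77%, 5.43% and 4.37%. The haemoglobin UMIs are in the denominator of the shares below, so shares are also given without haemoglobin and mitochondrial UMIs.

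The ribosomal protein genes together made up a larger part of the UMIs of T- and B-like cells than of NK-like, myeloid and red cells in each library. In T-like cells their share of UMIs was 41.1%, 32.3% and 34.1% in young, aged and aged-GA mice. In B-like cells it was 31.2%, 26.1% and 26.9%. NK-like cells, innate lymphocytes that kill, were lower, at 19.6%, 18% and 17.5%. T-like cells thus had the highest share and NK-like cells the lowest of these classes in each library, with log2 ratios of NK-like over T-like cells between -1.07 and -0.84. Plasma cell-like cells had 20.8% and 20.1% in aged and aged-GA mice, below the B-like cells of the same libraries. Of these cells 34.3% and 46.8% had only 3 plasma cell markers, and B cell markers were not set against them. They are therefore not all taken as antibody-secreting cells. Single cells varied around these sums, with quartiles of 28.7% and 34.9% in young B-like and of 37.1% and 45.4% in young T-like cells.

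Among myeloid cells, monocyte-like cells had 17.3%, 18.7% and 17% in young, aged and aged-GA mice, where the young value came from 58 cells. Neutrophil-like cells had 5.27% and 6.32% in aged and aged-GA mice, and basophil-like cells 12.9% and 15.5%, the latter from 22 cells. Over single neutrophil-like cells the medians were 3.51% and 3.86% and the third quartiles 4.51% and 4.82%, so the sums lay above most cells. Neutrophils, short-lived cells with little RNA, were the lowest of the leukocyte classes. Erythroid-like cells had 1.18%, 0.813% and 0.722% in young, aged and aged-GA mice, with 91.4% to 92.9% of their UMIs from haemoglobin genes. Over single erythroid-like cells the order was the reverse, with medians of 0.346%, 0.522% and 0.642%. Single young cells reached up to 21.1%, so the summed shares do not describe the typical cell. Without haemoglobin and mitochondrial UMIs in the denominator the erythroid-like share was 14.1%, 10.7% and 10.5%.

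**Figure D1:**
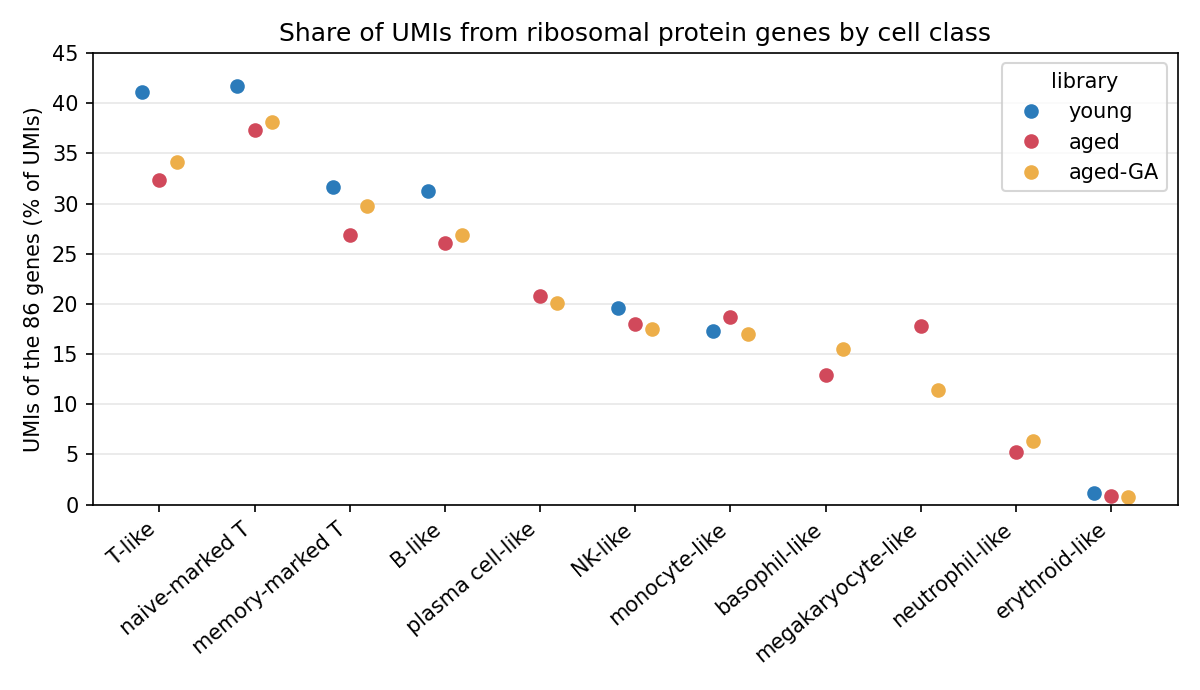
Share of the 86 genes in the UMIs of each cell class (y axis, percent, from 0), with 1 point per library and no error bar, since the counting intervals are smaller than or close to the points; a class is drawn where it held at least 20 cells. T-like cells, shown also as their naive- and memory-marked cells, were the highest class, at 41.1%, 32.3% and 34.1%, and erythroid-like cells lowest, at 1.18%, 0.813% and 0.722%.

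Both subunits contributed nearly equally. The small subunit gave 48.3%, 48.1% and 48.1% of the core UMIs in B-like cells and 48.7%, 47.8% and 47.9% in T-like cells. In NK-like cells it gave 45% to 45.9%, and in erythroid-like cells 45.5%, 42.8% and 42.9% in young, aged and aged-GA mice. The split thus moved by a few percentage points between classes, while the summed share moved far more between T-like and erythroid-like cells. The 5 most abundant members over all gated cells were Rps24, Rps27, Rpl13, Rps15a and Rps20, with 3.46%, 2.76%, 2.45%, 2.39% and 2.33% of the member UMIs, and 25 members held 50% of them. Levels between genes are counts of 3' ends and are not scaled to length, as each transcript is read from its end. Rps24, a small subunit protein that is mutated in Diamond-Blackfan anaemia, was at 11067, 9611 and 9494 CPM (UMIs scaled to a total of 1000000) in young, aged and aged-GA B-like cells, and at 14704, 11351 and 11577 CPM in T-like cells. Rps27, a zinc finger protein of the small subunit, was at 10223, 9047 and 8001 CPM in B-like and at 11023, 8799 and 7900 CPM in T-like cells. Both were highest in the young library in each class, and Rps27 was lowest in the aged-GA library.

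In T cells the share followed the naive or memory state. Naive-marked T cells, which carried more genes of the naive state such as those for homing to lymph nodes, had 41.7%, 37.3% and 38.1% in young, aged and aged-GA mice. Memory-marked T cells had 31.6%, 26.9% and 29.8%. Memory-marked cells were below naive-marked cells in all 3 libraries, with log2 ratios of -0.40, -0.47 and -0.36, and -0.42, -0.49 and -0.34 without haemoglobin and mitochondrial UMIs. Over single cells the median was 42% in naive-marked and 28.5% in memory-marked cells of young mice, 38.6% and 25.1% in aged mice, and 39% and 27.7% in aged-GA mice. Memory-marked cells differed in number between the libraries, with 222 of 5256 T-like cells in young, 886 of 2191 in aged and 1440 of 3583 in aged-GA mice, so that a sum over T-like cells of the aged libraries held more of the class with the lower share. CD4 T cells had 38.9%, 28.7% and 28.8% and CD8 T cells 43%, 35.5% and 37.3%, again with the lower value in CD4 T cells in each library.

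**Figure D2:**
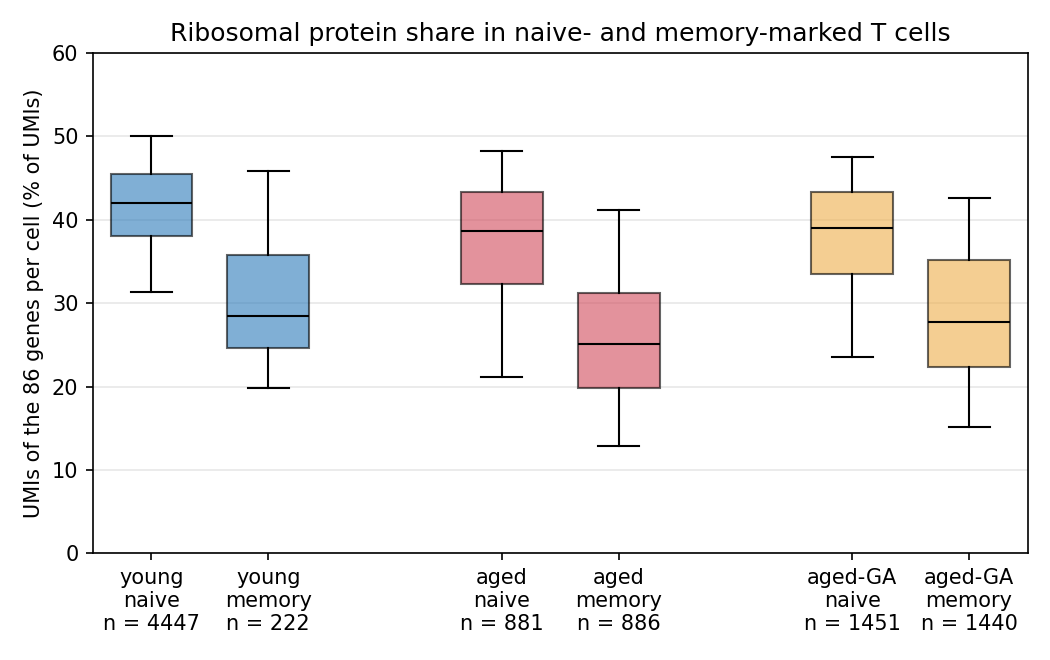
Share of the 86 genes in the UMIs of single naive-marked and memory-marked T cells (y axis, percent) in the 3 libraries; boxes give the quartiles and the median, whiskers the 5th and 95th percentiles over cells, and the number of cells stands under each box. The medians were 42%, 38.6% and 39% in naive-marked and 28.5%, 25.1% and 27.7% in memory-marked cells of young, aged and aged-GA mice.

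Within the member UMIs, memory-marked over naive-marked T cells, 39 of 83 members were above and 22 below 0 in all 3 libraries. This count was not made for other genes, and parts of a fixed total cannot all rise or all fall. The largest log2 ratios were those of Rps27l, a paralog of Rps27 that is induced by p53, at 1.34, 1.46 and 1.04 in young, aged and aged-GA mice. Rpl36al, a paralog of Rpl36a that arose by retrotransposition, had 0.49, 0.46 and 0.27. Among the core members Rpl27 had 0.40, 0.39 and 0.29 and Rpl7a 0.45, 0.34 and 0.30, and both belong to the large subunit. Rps20 had -0.33, -0.42 and -0.34 and Rps29 -0.40, -0.29 and -0.26, and both belong to the small subunit. Members of both subunits were on each side, with Rpl35a of the large subunit at -0.23 in all 3 libraries. Rps12 of the small subunit had 0.38, 0.24 and 0.32. The sign of each of these members was thus the same in the 3 libraries. As a sum, the small subunit held less of the core UMIs in memory-marked than in naive-marked T cells of each library. It held 46.7%, 46.9% and 47.5% against 48.8%, 48.5% and 48.3% in young, aged and aged-GA mice.

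A few members had a share that depended on the cell class. Rps9, a small subunit protein at the entry of the mRNA channel, made up 5.1% of the member UMIs in aged (95% interval 5 to 5.21%) and 4.38% in aged-GA (4.27 to 4.49%) neutrophil-like cells. In T-like cells Rps9 made up 1.15%, 1.3% and 1.27% in young, aged and aged-GA mice, and in monocyte-like cells 1.65%, 2.24% and 2.22%. Rps9 was thus highest in neutrophil-like and next in monocyte-, basophil- and megakaryocyte-like cells, at 2.11% to 2.35% in the latter 2 classes. With the stricter gate, at most 1 marker of another class, the neutrophil-like values were 7.97% and 7.47%.

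Basophil-like cells had the lowest share of Rpl3, a large subunit protein next to the peptidyl transferase centre. Rpl3 held 0.218% of their member UMIs in aged (0.175 to 0.269%) and 0.395% in aged-GA mice (0.281 to 0.54%), from 88 and 39 UMIs and at 0.22% and 0.25% with the stricter gate, whereas in B-like cells of the same libraries it held 0.825% and 0.931%. Rps23, a small subunit protein near the decoding centre, was high in them instead, at 3.11% (2.94 to 3.28%) and 2.88% (2.56 to 3.23%), against 1.24% and 1.2% in B-like cells. Rpl12, which sits at the base of the stalk, held 0.25% and 0.355% in basophil-like and 0.639% and 1% in T-like cells.

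Rpl41, which encodes the shortest protein of the ribosome, was highest in erythroid-like cells, at 3.58%, 5.49% and 4.55% in young, aged and aged-GA mice, against 1.43%, 2.04% and 1.61% in B-like cells. Some young erythroid-like cells had far more member UMIs than the median cell, so the value of 3.58% need not describe a typical red cell. Rpl36al held 0.96% of the member UMIs in aged and 0.776% in aged-GA plasma cell-like cells, where its share in B-like cells was 0.301% and 0.262%. With the stricter gate its plasma cell-like values were 0.814% and 0.607%. Rps27l held 0.192% and 0.139% in plasma cell-like, 0.129%, 0.188% and 0.154% in monocyte-like, and 0.0248%, 0.0478% and 0.0375% in T-like cells. For these 3 genes the aged library had the highest share in B-like, T-like and monocyte-like cells alike.

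**Figure D3:**
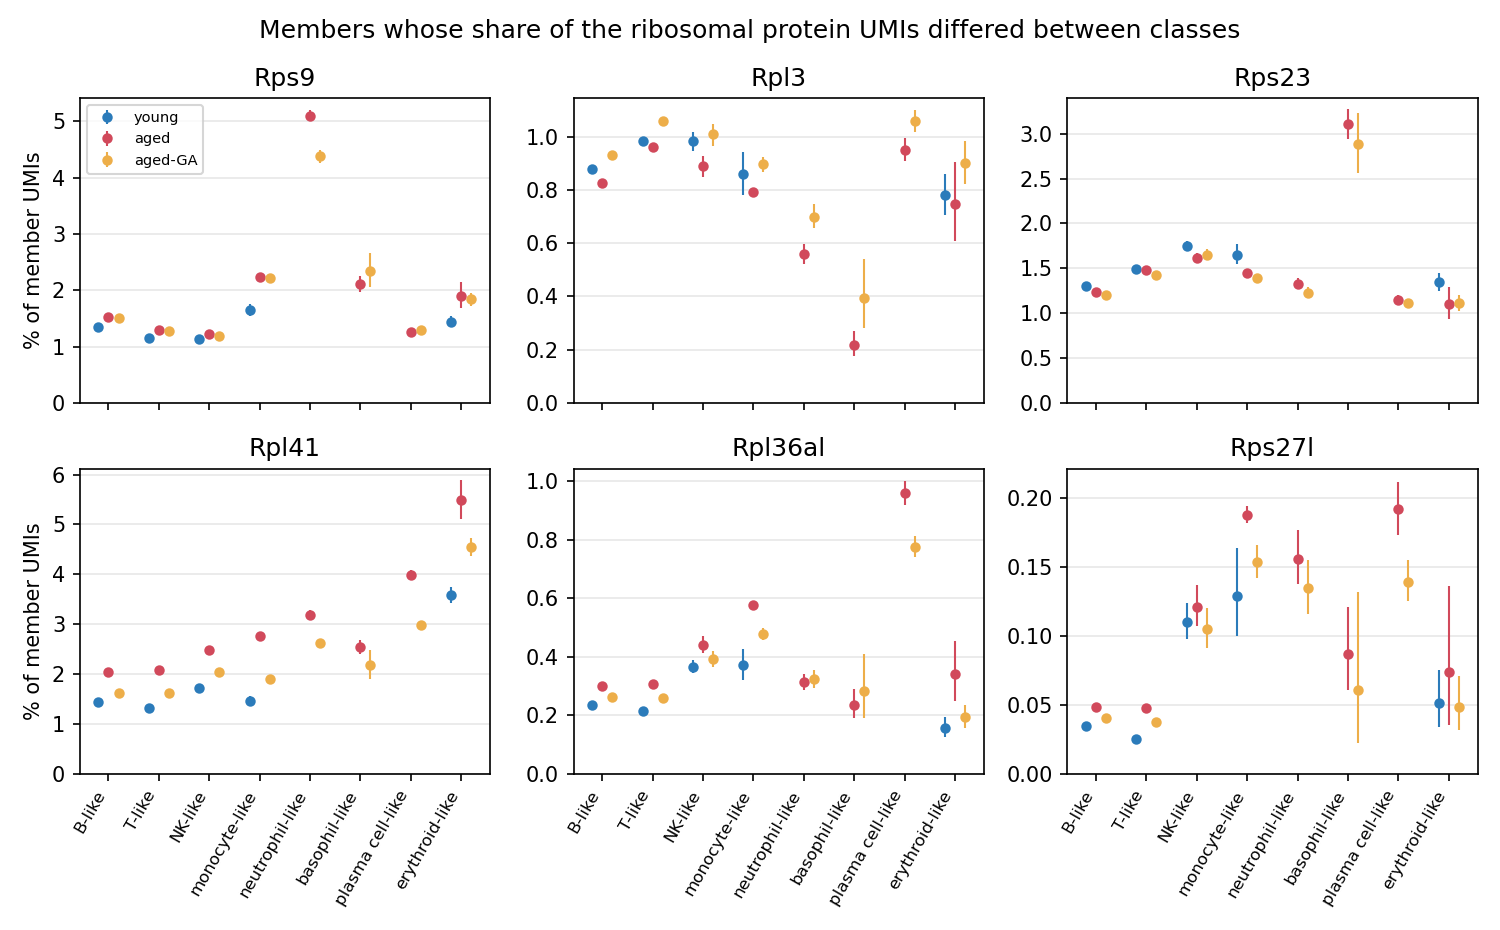
Share of 6 genes in the member UMIs of 8 classes (y axes, percent, from 0), with 1 point per library and exact binomial 95% intervals that cover counting error only. Rps9 reached 5.1% and 4.38% in neutrophil-like cells, Rps23 3.11% and 2.88% in basophil-like cells, where Rpl3 was at 0.218% and 0.395%, and Rpl36al 0.96% and 0.776% in plasma cell-like cells of the aged and aged-GA libraries.

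Of the other paralogs, Rpl3l, a relative of Rpl3 that is known from heart and skeletal muscle, was counted mostly in myeloid cells, with 13, 184 and 53 UMIs in young, aged and aged-GA monocyte-like cells and 35 and 21 UMIs in aged and aged-GA neutrophil-like cells. B-like cells held 11 UMIs of Rpl3l in the aged library, from 4585 cells against 1205 monocyte-like cells. Rpl39l and Rpl10l, known from testis, had at most 27 and 4 UMIs in a class and library. Rpl22l1, a paralog of Rpl22, held 0.3%, 0.327% and 0.276% of the member UMIs in B-like cells, below Rpl22 at 0.732%, 0.786% and 0.774%. Rps27rt, a retrogene copy of Rps27, held 0.0591%, 0.0559% and 0.0703% in B-like cells, and it shares its 3' end with Rps27, so its reads and those of Rps27 can be exchanged. Rps19bp1, which binds Rps19 and is no ribosomal protein, was at 30.3, 34.3 and 31.3 CPM in B-like cells, and Rpl7l1, a relative of Rpl7, at 31.7, 30.3 and 34.7 CPM.

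Between the aged and the young library, the members had a lower share in every class of lymphocytes. The log2 ratio of the share, aged over young, was -0.26, -0.35 and -0.12 for B-, T- and NK-like cells. Without haemoglobin and mitochondrial UMIs it was -0.17, -0.31 and -0.07, and the haemoglobin UMIs moved with it. In B-like cells it was also nearer to 0 with the stricter gate, at -0.13, and among cells with 2000 to 6000 UMIs, at -0.15. Within naive-marked T cells it was -0.16 and within memory-marked T cells -0.23, both smaller than over all T-like cells. In monocyte-like cells the ratio was 0.11, with 58 young cells. Over all kept cells the share fell from 33.7% to 23%, and with the young make-up of classes it would be 26.8% in the aged library.

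Single members differed in how far they were lower. Of 83 members that reached 100 UMIs over the 2 libraries together, 72 and 75 in B- and T-like cells had a log2 ratio of CPM below 0, aged over young, with medians of -0.26 and -0.34. The median of all genes counted was 0.18 and 0.30 in B- and T-like cells, so these ratios are relative to a shift upwards of the other genes. Past 1.5-fold lower were 12 members in B-like cells, where 3.51% of 9263 genes were past it, and 16 members in T-like cells, where 3.25% of 9419 genes were. Past 1.5-fold higher was no member in B-like cells and 1 in T-like cells, Rps27l at 0.59, where 15.8% and 25.1% of all genes were past it. After centring on the median of all genes 24 and 49 members were lower in the B- and T-like classes. After scaling to UMIs outside the members, haemoglobin and mitochondria they were 11 and 30, and with the stricter gate 9 and 11. The share of all genes past the limit was not counted under these settings. The call of Rps27l was lost after centring, after scaling, with a pseudocount of 10 CPM, with the stricter gate and without doublets. Those 1.5-fold lower in both classes included Rpl7, Rpl10, Rpl12, Rpl13a, Rpl17, Rplp1, Rps6, Rps14, Rps21 and Rps25, and Rps12 was so in B-like cells only by this limit, with -0.79 and -0.56 in B- and T-like cells.

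The stalk of the large subunit binds the elongation factors of translation, and its proteins were not alike. Rpl12 was at 3072, 1438 and 2347 CPM in young, aged and aged-GA B-like cells and at 4898, 2065 and 3425 CPM in T-like cells. Rplp1, a stalk protein, was at 4656, 2283 and 3486 CPM in B-like and 8543, 3886 and 6126 CPM in T-like cells. Both were lowest in the aged and highest in the young library, with log2 ratios, aged over young, of -1.09 and -1.25 for Rpl12 and of -1.03 and -1.14 for Rplp1. The other stalk proteins had smaller values, with -0.36 and -0.50 for Rplp0 and -0.54 and -0.59 for Rplp2. Rpl17, next to the exit tunnel of the large subunit, had -1.12 and -1.11 in B- and T-like cells.

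In the small subunit, Rps6, whose protein is phosphorylated by the S6 kinases, was at 1851, 989 and 1224 CPM in young, aged and aged-GA B-like cells. Rps25, which some viral RNAs need for internal initiation, was at 1473, 803 and 1179 CPM, and Rps14, whose loss lies behind the anaemia of the 5q- syndrome in people, at 3520, 1906 and 2560 CPM in these cells. Each was again lowest in the aged library. Rpl41 and Rpl36 stood on the other side, with 4449, 5310 and 4340 CPM for Rpl41 and 2503, 3156 and 2516 CPM for Rpl36 in B-like cells. Their log2 ratios, aged over young, were 0.26 and 0.33 in B-like and 0.32 and 0.35 in T-like cells, and those of Rps27l 0.23 and 0.59. After centring on the median of all genes, Rpl41 had 0.08 and 0.02 and Rpl36 0.16 and 0.05. Rps28 had 0.12 and 0.01 in B- and T-like cells, and its sign turned when ratios were centred on the median of all genes, to -0.06 and -0.29.

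A shift within the member UMIs between the libraries was seen in several classes of cells. Each member was taken as a share of the member UMIs of its class, which leaves haemoglobin and all other genes out, and 79 members reached 100 UMIs over both libraries in each of 5 classes, the B-, T-, NK-, monocyte- and erythroid-like cells. Aged over young, 23 of them were above and 25 below 0 in all 5 classes, and 31 were mixed. This count was not made for genes outside the members, and parts of a fixed total cannot all rise or all fall. Young erythroid-like cells held 50526 member UMIs over 359 cells, with a median of 39 per cell. Cells with many member UMIs thus weigh heavily in that sum, and the young monocyte-like sum came from 58 cells. Rpl12 had log2 ratios of its share between -1.05 and -0.84 over the 5 classes, Rplp1 between -0.79 and -0.48, Rpl17 between -0.86 and -0.34, and Rps14 between -0.64 and -0.48. Rpl41 had 0.52 to 0.93 and Rpl36 0.34 to 0.70. Rps24 lay near 0, with -0.21 to 0.09. Across the 79 members, the log2 ratios of B-like and T-like cells correlated with a Pearson r of 0.96, those of B-like and monocyte-like cells with 0.78, and those of monocyte-like and erythroid-like cells with 0.60. The classes of a library share its preparation, sequencing and free RNA, and members are not independent, so these values describe 1 pair of libraries.

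Counted by CPM, 4 members (Rpl12, Rpl13a, Rpl17 and Rps25) were past 1.5-fold lower, aged over young, in each of the 4 classes of B-, T-, NK- and monocyte-like cells, of 81 with enough UMIs in all 4. Of 3183 genes with enough UMIs there, 1.01% were lower in this way and 0.66% higher, and no member was higher in all 4. Reads of processed copies could shift such values, which was not tested. Of the 86 members, 74 shared a stretch of 60 identical bases in the last 300 bases of a transcript with another annotated gene, and 12 did not. Of the 4 members named above, Rpl12 had no such copy, while Rpl13a had 4, Rps25 had 7 and Rpl17 had 21. The Spearman correlation of the number of copies with the median shift over the 5 classes was 0.01 across the 79 members. For Rpl41, the copy Gm10076, at 11.6% of the UMIs of Rpl41, had a log2 ratio of -1.26 and -1.21 in B- and T-like cells, opposite to Rpl41, and the sum of both genes had 0.08 and 0.14.

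**Figure D4:**
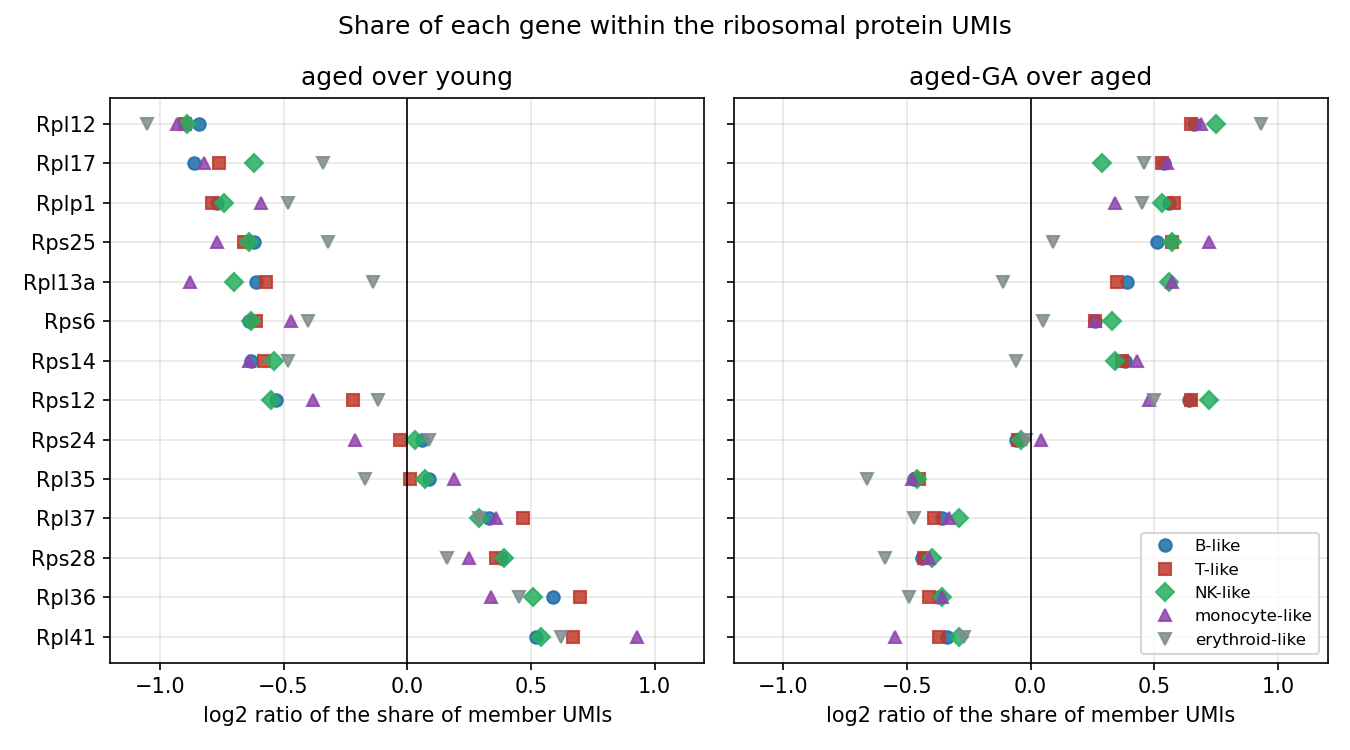
Log2 ratio of the share of a gene in the member UMIs (x axis) for 14 members (y axis) in 5 classes of cells, with aged over young on the left and aged-GA over aged on the right; each point is 1 class and there are no replicates. Rpl12 lay between -1.05 and -0.84 on the left and between 0.65 and 0.93 on the right, and Rpl36 between 0.34 and 0.70 and between -0.49 and -0.36. Both panels share the aged library.

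Between the aged-GA and the aged library the summed share differed little in B- and T-like cells, with log2 ratios, aged-GA over aged, of 0.05 and 0.08. Without haemoglobin and mitochondrial UMIs they were 0.01 and 0.08. The sign turned to -0.01 in B-like cells with the stricter gate and to -0.02 in T-like cells when only cells with 2000 to 6000 UMIs were taken, so no direction is read from them. Naive-marked T cells had 0.03 and memory-marked T cells 0.15. Megakaryocyte-like cells, at 17.8% in aged (26 cells) and 11.4% in aged-GA mice (37 cells), had -0.64, and -0.45 without haemoglobin and mitochondrial UMIs. Their medians over single cells were 15% and 4.72%. The aged cells had medians of 10233 UMIs and 5 markers of the best other class, against 2122 UMIs and 2 markers in aged-GA cells. This value is therefore not read as a difference within 1 cell type. Basophil-like cells had 0.27, neutrophil-like cells 0.26, NK-like cells -0.05, monocyte-like cells -0.14 and plasma cell-like cells -0.05. Without haemoglobin and mitochondrial UMIs these values were 0.15, 0.23, -0.05, -0.12 and -0.05. The medians over single neutrophil-like cells, 3.51% in aged and 3.86% in aged-GA mice, were closer together than the sums.

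Single members again differed more than their sum. Past 1.5-fold higher in aged-GA were 4 members in B-like cells (Rpl12, Rpl17, Rplp1 and Rps12) and 5 in T-like cells (the same 4 and Rps25), where 1.26% of 10084 and 0.882% of 9529 genes were past it. No member was past 1.5-fold lower, where 1.53% and 2.07% of all genes were. Rpl12 had log2 ratios of 0.71 and 0.73, Rps12 0.69 and 0.73, and Rplp1 0.61 and 0.66 in B- and T-like cells. At the other end, Rpl35 had -0.42 and -0.37, Rps28 -0.40 and -0.35 and Rpl36 -0.33 and -0.33. In all 4 classes of B-, T-, NK- and monocyte-like cells no member was past 1.5-fold in either direction, where 0.0939% of 3195 genes were higher and 0.0313% lower in all 4. These values and those of aged over young share the aged library, so a low or high level of a gene in that library gives it opposite signs in the 2 comparisons.

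With the stricter gate, or scaled to the UMIs outside the members, haemoglobin and mitochondria, 2 members were past 1.5-fold higher in B-like cells. They were Rpl12 and Rps12, while Rpl17 and Rplp1 were no longer past it. As a share of the member UMIs, 24 of 79 members were above and 19 below 0 in all 5 classes, aged-GA over aged, and 36 were mixed. Genes outside the members were again not counted in this way. Rpl12 had 0.65 to 0.93, Rps12 0.48 to 0.72 and Rplp1 0.34 to 0.58. Rpl35 had -0.66 to -0.45, Rps28 -0.59 to -0.40 and Rpl37 -0.47 to -0.29. The members with the shortest coding sequences were on the lower side, as 9 of the 10 shortest, of at most 315 bases, had a median over the classes below 0, against 28 of the 69 others. Across the 79 members the Spearman correlation of the coding length with this median was 0.41, and it was -0.22 for aged over young and 0.19 for aged-GA over young. With the length of the transcript in its place it was 0.19, aged-GA over aged. Aged over young, which shares the aged library, 8 of the same 10 short members were above 0, with a median of 0.27. Rps21, the one short member above 0, had 0.30 to 0.38.

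The aged-GA library compared with the young library held the values that do not use the aged library. The share of the members was lower in aged-GA, with log2 ratios of -0.21, -0.27 and -0.17 for B-, T- and NK-like cells, and -0.16, -0.22 and -0.12 without haemoglobin and mitochondrial UMIs. Past 1.5-fold lower were 2 of 83 members in B-like cells (Rpl35 and Rps6), where 2.31% of all genes were. In T-like cells they were 4 of 83 (Rpl35, Rps6, Rps26 and Rps29), where 2.61% of all genes were. The B-like count was near the share of all genes, and neither count is read as particular to the members. No member was past 1.5-fold higher, where 11.4% and 18.8% of all genes were. Rps6 had -0.60 and -0.61 and Rpl35 -0.59 and -0.71 in B- and T-like cells, Rps26 -0.60 in T-like cells and Rpl17 -0.53 in B-like cells. The highest were Rpl7l1, Rps19bp1 and Rps27rt in B-like cells, at 0.13, 0.05 and 0.03, and Rps27l, Rps12 and Rpl7l1 in T-like cells, at 0.33, 0.17 and 0.07. Rpl12, which had -1.09 and -1.25 in the aged library, had -0.39 and -0.52 here, and Rpl41 had -0.04 and 0.04.

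Other genes of translation were followed beside the members. Of 20 translation factors and other genes with TOP mRNAs, 2 and 4 in B- and T-like cells were past 1.5-fold lower, aged over young, and 0 and 1 higher, with medians of -0.32 and -0.23. Tpt1, a TOP gene that encodes the translationally controlled tumor protein, was at 7153, 3433 and 5399 CPM in young, aged and aged-GA B-like cells, a log2 ratio of -1.06, aged over young. Eef1a1, which brings aminoacyl-tRNA to the ribosome, had -0.50 and -0.59 in B- and T-like cells, while Eef2, the translocation factor, had 0.21 and 0.10. The elongation factors thus did not move as one. Of 47 genes of ribosome biogenesis, 3 were past 1.5-fold lower and none higher in B-like cells and 8 higher and none lower in T-like cells, with medians of 0.02 and 0.17. The 78 genes of the mitochondrial ribosome had medians of 0.07 and 0.22, with 1 and 3 past 1.5-fold higher and none lower. Of all genes, 15.8% were past 1.5-fold higher and 3.51% lower in B-like cells, and 25.1% and 3.25% in T-like cells, so the lists of biogenesis and of the mitochondrial ribosome held a smaller share of higher genes than that. Both lists were nearer to the median of all genes, 0.18 and 0.30, than the cytosolic ribosomal protein genes were.

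Ribosomal components under other symbols, Fau and Rack1, were not alike. Fau, which encodes the small subunit protein eS30 fused to a ubiquitin-like protein, was at 8177, 7762 and 7492 CPM in young, aged and aged-GA B-like cells. Rack1, a scaffold on the small subunit, was at 1899, 947 and 1292 CPM in B-like and 2694, 1257 and 1777 CPM in T-like cells. Rack1 was thus lowest in the aged library, while Fau differed little between the libraries. Among 20 counted regulators of these mRNAs, through mTORC1 and MYC, 3 were higher and 3 lower by 1.5-fold in B-like cells, aged over young. In T-like cells they were 4 and 2. Of all genes, 15.8% were higher and 3.51% lower in B-like cells, and 25.1% and 3.25% in T-like cells. The counts of higher regulators were not above these shares and are not read as particular to the regulators. In B-like cells those higher were Tsc1, Tsc2 and Larp1, with log2 ratios of 0.99, 0.76 and 0.73. Those lower there were Ddit4, Myc and Sesn1, with -1.88, -1.24 and -1.01. Larp1, which binds TOP mRNAs, was at 46.6, 78.1 and 67.1 CPM in B-like and 47.8, 102 and 84.2 CPM in T-like cells. Myc was at 93.9, 39.3 and 44.8 CPM in B-like and 41.3, 38.2 and 47.3 CPM in T-like cells, lowest in the aged library in both classes.

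**Figure D5:**
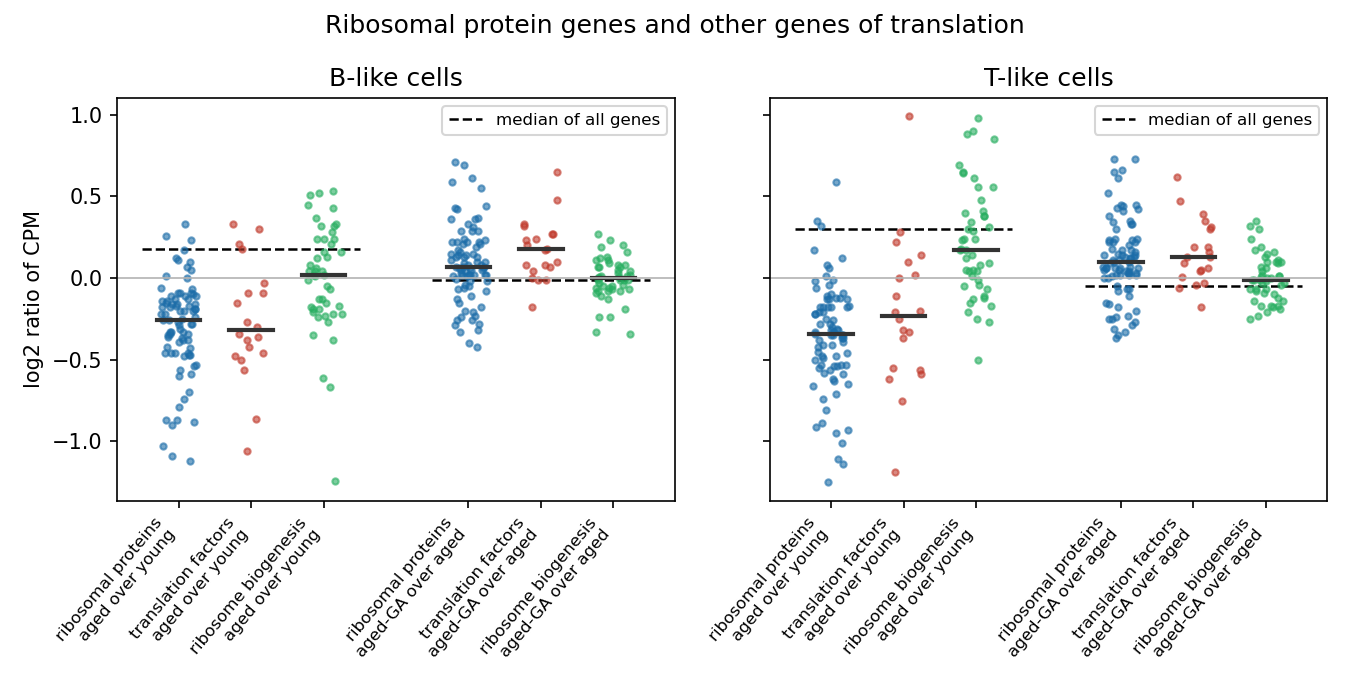
Log2 ratio of CPM (y axis) for the ribosomal protein genes, the translation factors and the genes of ribosome biogenesis in B-like (left) and T-like cells (right), with 1 point per gene, bars at the medians and a dashed line at the median of all genes. Aged over young, the medians of the ribosomal protein genes were -0.26 and -0.34 and those of all genes 0.18 and 0.30, and aged-GA over aged they were 0.07 and 0.10.

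Genes known to rise when cells are dissociated also differed between the libraries, as the median of 13 such genes, aged over young, was -0.70 and -0.25 in B- and T-like cells, and their part in the results above was not tested. Over 23 pairs of class and library, the genes outside the members whose CPM correlated best with the share of the members, of 8230 genes with at least 1000 UMIs, were Gm11808 (Pearson r 0.974), Eef1b2 (0.968), Npm1 (0.966), Eif3e (0.957), Eef1a1 (0.953), Emg1 (0.943), Gm2000 (0.942), Eef1g (0.936), Hspe1 (0.932) and mt-Co1 (0.929). Eef1b2, Eef1a1 and Eef1g encode parts of elongation factor 1, Npm1 and Emg1 act in ribosome biogenesis, and Gm2000 is a copy of Rpl35. These pairs share libraries, and the order is mainly that of lymphocytes against myeloid and red cells.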

How the data were processed

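PBMCs of 3 libraries (young, aged and aged-GA, 1 sample per group by their labels) were profiled with a droplet-based 3' kit. The deposited count matrices hold raw UMI counts per gene and cell, which the authors made with Cell Ranger (5.0.0 in the file headers) on mm10 by the submitters' processing notes, with the annotation not given in the sources used here. Barcodes below 200 genes, above 90% of the largest gene number in their library or above 7.5% mitochondrial UMIs were left out, by limits from the methods of the study, which set them on the aggregated dataset. Doublets were kept in the main values. The doublet caller, Scrublet in scanpy 1.11.5, set no working limit in the aged-GA library, so the alternative left out the 5% of cells with the highest scores per library. UMI counts were summed per class and library (numpy 2.4.6, pandas 2.3.3). Shares have exact binomial 95% intervals (scipy 1.17.1). Log2 ratios of CPM used a pseudocount of 1 CPM and needed 100 UMIs in the 2 libraries together, and a gene was called past 1.5-fold. A fold takes the place of a test, since groups have 1 sample.

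The members and gene lists were chosen with earlier results of these data known. Named members were the 5 most abundant, the 3 highest and 3 lowest ratios per comparison in B- and T-like cells, the 5 core members that varied most between classes, and all paralogs. Others were chosen after their values were seen. Only the step that computes log2 ratios of CPM was tested on simulated data. Some genes are not reported here.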

Additional observations from a re-analysis of the deposited data

Results flagged for a closer look

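The log2 ratio of the summed share, aged over young, had a different sign in monocyte-like cells (0.11) than in B-like (-0.26), T-like (-0.35), NK-like (-0.12) and erythroid-like cells (-0.53). The difference was not tested, since each group is 1 library, and the young monocyte-like class held 58 cells. In erythroid-like cells the median over single cells went the other way, at 0.346% in the young and 0.522% in the aged library.

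Barcodes with fewer than 200 genes were in no comparison and also held UMIs of the ribosomal protein genes. The members made up 0.331%, 0.43% and 0.544% of the UMIs of such barcodes in the young, aged and aged-GA libraries, where haemoglobin genes made up 94.8%, 95.9% and 95.2%.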

How the results depend on the processing

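The log2 ratio of the summed share in B-like cells, aged over young (-0.26), was -0.25 with no mitochondrial limit, -0.13 with the stricter gate, -0.15 among cells with 2000 to 6000 UMIs, -0.17 without haemoglobin and mitochondrial UMIs and -0.20 as a mean per cell. In T-like cells (-0.35) it was -0.25 with the stricter gate, -0.34 without doublets, -0.37 at 2000 to 6000 UMIs, -0.31 without haemoglobin and mitochondrial UMIs, -0.37 per cell and -0.35 for core members. Aged-GA over aged, B-like cells (0.05) had 0.04 with no mitochondrial limit, -0.01 with the stricter gate, 0.06 without doublets, 0.0031 at 2000 to 6000 UMIs, 0.01 without haemoglobin and mitochondrial UMIs and 0.02 per cell. T-like cells (0.08) had 0.05 with the stricter gate, -0.02 at 2000 to 6000 UMIs, and 0.08 with no mitochondrial limit, without doublets, without haemoglobin and mitochondrial UMIs, per cell and for core members. The 2 values below 0 turned in sign, and the cause was not tested.

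For memory-marked over naive-marked T cells, the alternatives were chosen after seeing the data. In young, aged and aged-GA mice the values were -0.42, -0.49 and -0.34 without haemoglobin and mitochondrial UMIs, -0.51, -0.57 and -0.50 at 2000 to 6000 UMIs, and -0.41, -0.47 and -0.35 without doublets, and with the stricter gate -0.37 in young and -0.41 in aged-GA mice. The sign held in all of these.

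Of members past 1.5-fold, aged over young, 1 was higher in B-like cells with at least 1 UMI, 24 were lower there after centring on the median of all genes, and 2 with the aged-GA in place of the aged library (added after seeing the data). In T-like cells 0 were higher with a pseudocount of 10 CPM, after scaling to other UMIs, after centring, with the stricter gate, without doublets or with the aged-GA library, and 30 were lower after scaling, 49 after centring and 4 with the aged-GA library. Aged-GA over aged, 2 were higher in B-like cells after scaling and with the stricter gate. With the aged-GA library in place of the aged one, 2.31% and 2.61% of all genes were lower in B- and T-like cells. The counts of 2 and 4 lower members there are not read as particular to the members. Under the other settings the share of all genes past the limit was not counted. Rps28, aged over young, turned to -0.06 in B-like cells after centring and to -0.15 and -0.29 in T-like cells after scaling and centring. Single log2 ratios were followed under the alternatives only for Rpl12, Rpl17, Rplp1, Rps25, Rps12, Rpl41, Rpl36, Rpl35 and Rps28. The other members are covered only by the counts above, which moved between settings. Of the ratios of the named members, 242 kept their sign and side of 1.5-fold, 3 turned in sign, 4 fell inside 1.5-fold and 3 moved past it. Those that fell inside were Rpl17 and Rplp1 in B-like cells, aged-GA over aged, after scaling and with the stricter gate. No replicate could be left out, with 1 library per group.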
